A study of Mus musculus with 9 samples.

Results

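The 33 genes described here encode the enzymes that build cholesterol and fatty acids, together with the regulators that set their transcription. They were listed by symbol for their role in the pathway, with no measured value in the rule. The list was made with earlier results of these data known. It holds 33 of the 51912 genes in the deposited table. All 33 were found by symbol and all 33 passed the low-count filter, among 17289 genes tested. The sterol branch holds 22 of them and the fatty acid branch 11.

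RNA was sequenced from organoids, epithelial fragments of mammary tumours from FVB/NJ mice of genotype MMTV::PyMT; (R26)pCA::mT/mG, in which a viral promoter active in mammary epithelium drives the polyoma middle T oncogene and a fluorescent reporter records Cre activity. The 5 E-cad-KO samples were Cdh1fl/fl and the 4 WT samples were Cdh1+/+. Both groups had been exposed overnight to an adenovirus carrying Cre, so the virus and Cre were shared, and were then kept 48 h in collagen I with FGF2. The series calls the samples biological replicates without naming animals or ages, and a p-value therefore speaks only to the variation among these samples.

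Animal cells make cholesterol from acetyl-CoA through mevalonate, isoprenoids and squalene, and make fatty acids from the same precursor by carboxylation, chain building, elongation and desaturation. Transcription of both routes is driven by the SREBP proteins, which the escort protein SCAP carries from the endoplasmic reticulum to the Golgi for cleavage when sterols run low, and which INSIG proteins hold back when sterols are plentiful. Mammary epithelium is known for strong lipid synthesis, since it secretes milk fat.

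The promoters show what the pathway genes share in sequence, and those of Hmgcs1, Idi1, Cyp51 and Srebf2 are given as the entry to mevalonate, a prenyl donor step, a sterol step and the main sterol regulator. RefSeq promoters on GRCm38.p6, 250 bases before to 50 after the transcription start, were matched for 26 of the 33 genes. Each reads 5′ to 3′ on the gene's strand. Capitals mark the CCAAT box, the site of the factor NF-Y, as CCAAT or as its reverse complement ATTGG, and in Hmgcs1 also the sterol regulatory element core.

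Hmgcs1, chr13:119690101-119690400, plus strand: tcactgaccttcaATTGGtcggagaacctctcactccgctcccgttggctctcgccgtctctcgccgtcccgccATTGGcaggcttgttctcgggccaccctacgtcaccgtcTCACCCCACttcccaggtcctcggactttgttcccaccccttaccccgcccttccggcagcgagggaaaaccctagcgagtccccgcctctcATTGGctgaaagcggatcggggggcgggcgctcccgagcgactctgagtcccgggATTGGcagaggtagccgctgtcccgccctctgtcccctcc

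Idi1, chr13:8885356-8885655, plus strand: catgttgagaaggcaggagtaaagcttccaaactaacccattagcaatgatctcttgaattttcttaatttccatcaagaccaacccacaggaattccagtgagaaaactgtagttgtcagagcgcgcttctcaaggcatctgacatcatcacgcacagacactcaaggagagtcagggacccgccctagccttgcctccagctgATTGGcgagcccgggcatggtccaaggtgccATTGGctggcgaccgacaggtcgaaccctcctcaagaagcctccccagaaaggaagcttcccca

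Cyp51, chr5:4104648-4104947, minus strand: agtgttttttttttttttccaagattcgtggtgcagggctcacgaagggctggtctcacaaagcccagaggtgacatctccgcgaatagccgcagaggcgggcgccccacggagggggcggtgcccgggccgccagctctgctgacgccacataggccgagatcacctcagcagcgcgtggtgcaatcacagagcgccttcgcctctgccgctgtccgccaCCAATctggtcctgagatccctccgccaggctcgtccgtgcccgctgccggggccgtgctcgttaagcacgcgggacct

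Srebf2, chr15:82147019-82147318, plus strand: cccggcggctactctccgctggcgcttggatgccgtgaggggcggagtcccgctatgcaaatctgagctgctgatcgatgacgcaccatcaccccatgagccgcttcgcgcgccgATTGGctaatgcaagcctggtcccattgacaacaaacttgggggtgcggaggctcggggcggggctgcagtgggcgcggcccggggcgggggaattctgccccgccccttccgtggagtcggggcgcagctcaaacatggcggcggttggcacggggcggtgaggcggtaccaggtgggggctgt

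A CCAAT box on either strand was found in 22 of the 26 genes (84.6%), against 42.4% of the 11820 tested genes with a promoter in the same table and 41.1% of all 27025 genes in it. In the sterol branch 17 of 18 had it, and in the fatty acid branch 5 of 8. The GC box GGGCGG, which Sp1 binds, was in 21 of 26 (80.8%), against 65.4% of tested genes. The E-box CACGTG, whose letters read the same on both strands, was in 6 of 26 (23.1%), against 11.1% of tested genes. The strict sterol element core, searched as TCACNCCAC on both strands, was in Hmgcs1 alone, 137 bases before its start (position -137), and in 1.35% of tested genes. No match overlapped another in the sequences shown. A gene counted as holding a motif if any of its listed promoters did, and a match is a description of letters, not of binding.

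Cdh1, the gene targeted by Cre, had 86.5, 118.3, 85.2, 87.3 and 79.0 CPM (read counts scaled to library size) in the E-cad-KO libraries, against 246.5, 150.3, 201.2 and 159.3 CPM in the WT libraries. The groups did not overlap, and Cdh1 fell by 1.05 on the log2 scale (SE 0.16, edgeR adjusted p = 0.0275). The size held at -1.16 to -0.89 under all alternatives, but the call was lost without E-cad-KO 1, 3, 4 or 5 or WT 3 (adjusted p 0.0644 to 0.0904), without WT 1 and WT 4 (0.0545) and with the replicate block (0.171). Library totals were 44890302 to 62416955 counts in E-cad-KO and 52603695 to 64763645 counts in WT. The 7 luminal markers that identify the labelled tissue summed to 4154.6 to 5272.9 CPM in E-cad-KO and 3421.1 to 4709.8 CPM in WT. None of them was called by edgeR, but 5 of 7 (71.4%) had an unadjusted p under 0.05, against 16.7% of all genes tested. The markers leaned in both directions. Krt8 had 1393.2 to 1724.0 CPM in E-cad-KO and 1098.6 to 1327.7 CPM in WT (log2 fold change 0.39, edgeR adjusted p = 0.0530), and Cldn7 had 102.0 to 114.7 CPM in E-cad-KO and 65.1 to 93.4 CPM in WT (log2 fold change 0.44, edgeR adjusted p = 0.0511), both without overlap. Groups thus did not overlap for 2 of the 7 markers, and for 8.11% of all genes tested. The log2 fold change was -0.38 for Elf5 and -0.57 for Krt19. Since the samples are bulk extracts of whole gels, fewer cells of a type and less RNA per cell cannot be told apart.

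No difference between E-cad-KO and WT organoids was resolved in either branch, given the spread between libraries. By edgeR's quasi-likelihood test, 0 of 22 sterol genes and 0 of 11 fatty acid genes were called at an adjusted p under 0.05, the threshold used throughout, where 1.41% of all genes tested were called. With so small a share called over all genes, 0 of 33 does not set these genes apart. At an unadjusted p under 0.05 there were 4 of 33 (12.1%), against 16.7% of all genes tested. The share among the 33 was the lower one under 14 of 18 alternatives and the higher one under 4: without WT 4 (27.3% against 18.5%), with the replicate block (18.2% against 14.0%), without WT 1 and WT 4 (15.2% against 14.3%) and with all genes of at least 1 count (12.1% against 11.1%). The E-cad-KO and WT values overlapped for all 33, while 8.11% of tested genes had groups that did not overlap. With limma-voom 0 of 33 were called (2.96% of all genes), and with DESeq2 1 of 33 was called, Acss2 (6.98% of all genes). Leaving out each library in turn moved the count over all genes from 244 to between 9, without WT 3, and 334, without WT 4, and left 0 of 33 called each time. The median log2 fold change, E-cad-KO over WT, was -0.07 in the sterol branch and -0.01 in the fatty acid branch, against -0.01 over all genes tested. Of the 33 log2 fold changes, 14 were positive and 19 negative, and 18 changed sign under at least 1 alternative, so the signs given here are those of edgeR with all 9 libraries.

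The 95% intervals of the fold changes give the size that the data allow. For 29 of the 33 genes the interval lay within a 1.5-fold change in either direction, as it did for 60.0% of all genes tested. For all 33 it lay within 2-fold, against 77.9% of all genes tested. The 4 genes whose interval reached beyond 1.5-fold were Fdps, Acss2, Scd1 and Fads1. The tightest intervals in the sterol branch belonged to Insig1, the sterol-sensing brake on SREBP, with a fold of 0.968 (0.867 to 1.08), and to Scap, the escort of SREBP, with a log2 fold change of 0.16 (SE 0.07).

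**Figure D1:**
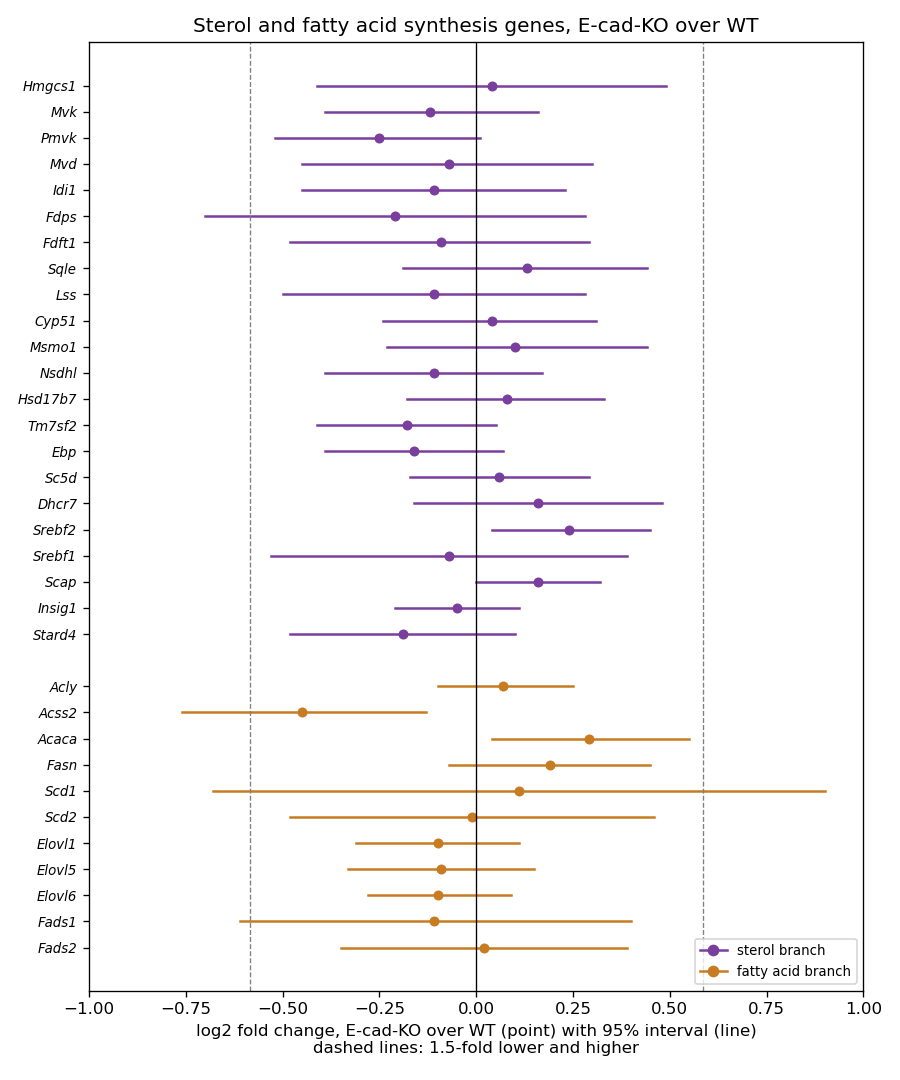
Log2 fold change of each gene, E-cad-KO over WT, from edgeR (points) with its 95% interval (lines), in pathway order with the sterol branch above and the fatty acid branch below; dashed lines mark 1.5-fold. The points run from -0.45 for Acss2 to 0.29 for Acaca, and only the intervals of Fdps, Acss2, Scd1 and Fads1 cross a dashed line.

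Both branches together took up about the same share of the transcriptome in each group. The 22 sterol genes summed to 2149.6, 2360.5, 2346.5, 1964.8 and 2062.0 CPM in the E-cad-KO libraries and to 2663.5, 2344.2, 2164.3 and 1673.7 CPM in the WT libraries. Every E-cad-KO sum lay inside the WT range. The 11 fatty acid genes summed to 2823.8, 3104.6, 3208.6, 2194.4 and 2182.0 CPM in E-cad-KO, against 3175.5, 2979.6, 2768.3 and 1653.1 CPM in WT. Here E-cad-KO 3 lay just above the highest WT library. Scd1 and Scd2 made up most of the fatty acid sums, averaging 784.9 and 982.5 CPM in E-cad-KO and 728.7 and 991.6 CPM in WT. All 33 genes made up 0.488% of counts in E-cad-KO and 0.486% in WT.

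Per kilobase of transcript, taking the longest in the annotation, the desaturase genes Scd2 and Scd1 stood highest, at 181 and 157 CPM per kb over the 9 libraries. They place the first double bond in saturated fatty acids. Next came Idi1, the isopentenyl diphosphate isomerase, at 91.6 CPM per kb, Hmgcs1, the HMG-CoA synthase that feeds the mevalonate route, at 67.9, and Srebf1, the SREBP gene most tied to fatty acid synthesis, at 61.0. The lowest were Acss2, which makes acetyl-CoA from acetate, at 4.02 CPM per kb, the sterol reductase gene Tm7sf2 at 5.74, Hsd17b7 at 7.33 and the lanosterol synthase gene Lss at 7.44.

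Among the 6 mevalonate genes, 1 had a positive and 5 a negative log2 fold change, and all 6 missed the threshold. Pmvk, phosphomevalonate kinase, had the smallest p of them. It stood at 57.1, 65.0, 66.3, 59.1 and 60.5 CPM in E-cad-KO, against 92.3, 76.1, 68.4 and 56.8 CPM in WT, and the E-cad-KO values all lay within the WT range (log2 fold change -0.25, SE 0.12, edgeR adjusted p = 0.319). Fdps, which makes farnesyl diphosphate, stood at 21.2, 26.5, 25.3, 19.2 and 16.2 CPM in E-cad-KO and at 35.8, 24.6, 23.9 and 16.2 CPM in WT, with WT 1 above every other library (fold 0.863, interval 0.616 to 1.21). Hmgcs1 averaged 238.0 ± 34.7 CPM in the E-cad-KO libraries (SD, n = 5) and 231.6 ± 72.5 CPM in the WT libraries (SD, n = 4). For the remaining 3, the log2 fold changes were -0.11 for Idi1, -0.12 for the mevalonate kinase gene Mvk and -0.07 for Mvd, which decarboxylates mevalonate diphosphate.

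The 11 genes from squalene to cholesterol divided into 6 with a positive and 5 with a negative log2 fold change, from -0.18 to 0.16, and 0 had an unadjusted p under 0.05. Tm7sf2 stood at 18.1, 17.5, 17.3, 14.4 and 16.3 CPM in E-cad-KO, against 21.3, 20.1, 18.7 and 15.4 CPM in WT (log2 fold change -0.18, SE 0.10, edgeR adjusted p = 0.437). The WT libraries ran slightly higher, with overlap. Ebp, the sterol isomerase gene, stood at 90.3, 91.9, 98.8, 88.5 and 70.4 CPM in E-cad-KO and at 111.2, 100.1, 97.6 and 84.3 CPM in WT (log2 fold change -0.16, SE 0.10, edgeR adjusted p = 0.480).

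Dhcr7, whose enzyme completes cholesterol from its dehydro precursor, leaned the other way, at 62.6, 69.1, 65.1, 53.0 and 50.1 CPM in E-cad-KO and 62.9, 58.7, 54.2 and 39.1 CPM in WT (log2 fold change 0.16, SE 0.14, edgeR adjusted p = 0.636). Its highest values were in E-cad-KO 2 and 3 and its lowest in WT 4. Sqle, the squalene epoxidase gene that is an established control point of the pathway, averaged 86.0 ± 9.38 CPM in the E-cad-KO libraries (SD, n = 5) and 78.8 ± 16.6 CPM in the WT libraries (SD, n = 4), a fold of 1.09 (0.877 to 1.36). Fdft1, which makes squalene, had a fold of 0.938 and Lss, the lanosterol synthase gene, of 0.926. The lanosterol demethylase gene Cyp51 had a fold of 1.03, the methylsterol oxidase gene Msmo1 of 1.07, Nsdhl, which acts in the same demethylation, of 0.924, Hsd17b7 of 1.06 and the desaturase gene Sc5d of 1.04.

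Of the 5 regulation and transport genes, Srebf2 and Scap had unadjusted p-values under 0.05 and were not called. Srebf2, the SREBP gene most tied to cholesterol synthesis, stood at 89.6, 101.5, 110.6, 86.4 and 89.4 CPM in E-cad-KO, against 93.2, 78.4, 78.5 and 73.2 CPM in WT. E-cad-KO 2 and 3 exceeded every WT library, and WT 1 exceeded the other 3 E-cad-KO libraries (log2 fold change 0.24, SE 0.09, unadjusted p = 0.0252, edgeR adjusted p = 0.219). Scap stood at 53.7, 49.9, 56.4, 45.6 and 47.5 CPM in E-cad-KO and at 48.2, 43.9, 46.2 and 43.0 CPM in WT. Its E-cad-KO values exceeded the highest WT library in 3 of 5 cases (log2 fold change 0.16, SE 0.07, unadjusted p = 0.0488, edgeR adjusted p = 0.295). On GRCm38, Srebf2 (ENSMUSG00000022463) lies at chr15:82147181-82205379 and Scap (ENSMUSG00000032485) at chr9:110333288-110384950.

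Stard4, a sterol carrier in the cytosol, showed the spread that recurs in the sterol enzymes. It stood at 70.3, 75.0, 75.8, 71.7 and 72.0 CPM in E-cad-KO, against 105.9, 87.1, 80.7 and 59.4 CPM in WT, so that the E-cad-KO libraries clustered inside a wide WT range (log2 fold change -0.19, SE 0.13, edgeR adjusted p = 0.516). Without WT 4, Stard4 came nearest to a call of all 33 genes, at an edgeR adjusted p of 0.0698. Srebf1 varied widely in both groups, with 343.5, 275.9, 278.4, 177.7 and 205.8 CPM in E-cad-KO and 234.0, 278.9, 350.4 and 214.3 CPM in WT (fold 0.951, interval 0.691 to 1.31). The ratio of Srebf1 to Srebf2 was 3.83, 2.72, 2.52, 2.06 and 2.30 in E-cad-KO and 2.51, 3.56, 4.46 and 2.93 in WT, a difference of -0.33 on the log2 scale (two-sided exact permutation p = 0.222, adjusted over 2 ratios 0.444; the smallest p that the 126 regroupings allow is 0.00794).

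In the fatty acid branch, 3 of the 4 genes of carbon supply and chain building had positive log2 fold changes and Acss2 had a negative one. Acss2 stood at 11.5, 13.5, 14.6, 11.0 and 11.9 CPM in E-cad-KO, against 22.3, 16.9, 14.9 and 14.0 CPM in WT. Only E-cad-KO 3 reached into the WT range (log2 fold change -0.45, SE 0.14, unadjusted p = 0.0101, edgeR adjusted p = 0.147). DESeq2 called Acss2 (log2 fold change -0.44, adjusted p = 0.0494), and over all alternatives its adjusted p ran from 0.0494 to 0.315. On GRCm38 it lies at chr2:155517948-155585724, and its exons overlap those of Acss2os, Ggt7 and Gss on the other strand, and whether the counting used the strand is not given in the sources used here.

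Acaca, the acetyl-CoA carboxylase gene that commits carbon to fatty acids, stood at 116.5, 110.0, 125.5, 101.6 and 107.6 CPM in E-cad-KO and at 104.7, 100.1, 92.8 and 68.6 CPM in WT. The E-cad-KO values exceeded the highest WT library in 4 of 5 cases, and WT 4 was the lowest library (log2 fold change 0.29, SE 0.12, unadjusted p = 0.0285, edgeR adjusted p = 0.233). Acaca lies at chr11:84129672-84401651 on GRCm38. Leaving out WT 4 brought the Acaca log2 fold change to 0.18. Fasn, the fatty acid synthase gene, stood at 144.3, 126.5, 154.3, 122.0 and 108.4 CPM in E-cad-KO and 127.6, 93.0, 122.5 and 115.7 CPM in WT (log2 fold change 0.19, SE 0.12, edgeR adjusted p = 0.456). Acly, which supplies cytosolic acetyl-CoA from citrate, stood at 182.3, 181.9, 187.7, 164.5 and 177.8 CPM in E-cad-KO and 195.2, 165.8, 172.2 and 146.8 CPM in WT, a fold of 1.05 (0.932 to 1.19).

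**Figure D2:**
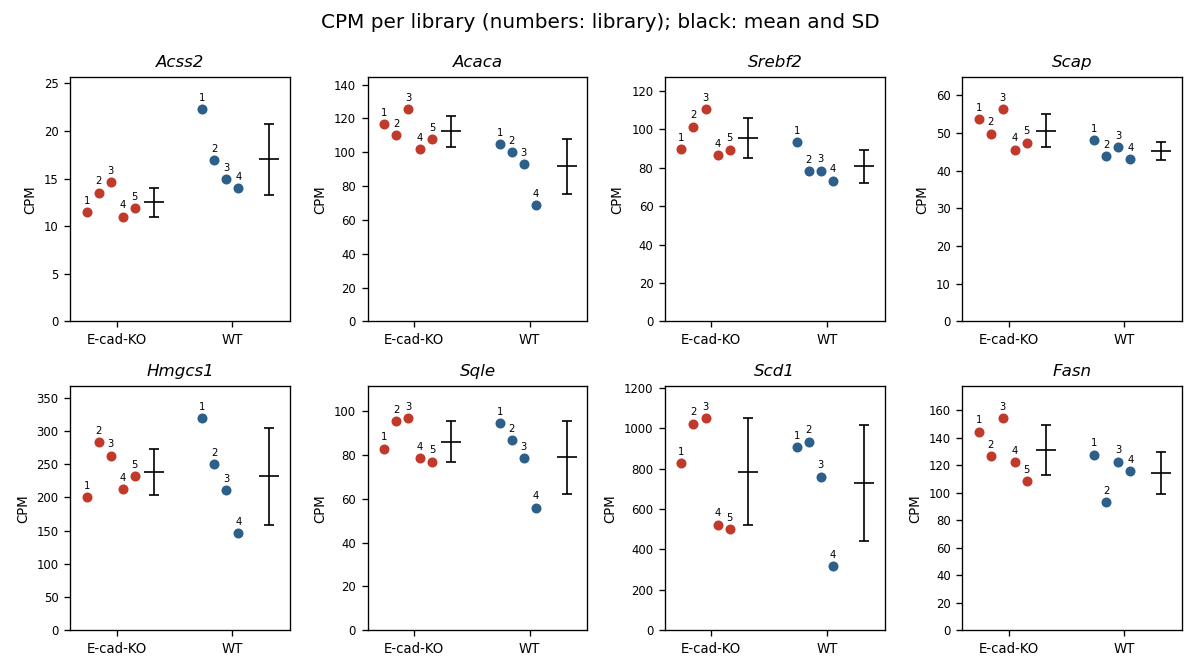
CPM of 8 genes in each library, with E-cad-KO (red) left of WT (blue), the library number above each point, and the group mean with SD in black. Acss2 is lower in 4 of 5 E-cad-KO libraries than in every WT library and Acaca higher in 4 of 5, while for Hmgcs1, Sqle, Scd1 and Fasn the groups are interleaved.

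The 7 desaturase and elongase genes had log2 fold changes from -0.11 to 0.11, and 0 had an unadjusted p under 0.05. Scd1 was the most variable of all 33 genes, with 826.9, 1023.3, 1050.4, 522.1 and 501.6 CPM in E-cad-KO and 904.7, 933.9, 759.6 and 316.5 CPM in WT. E-cad-KO 4 and 5 and WT 4 were low, and the interval of the fold was wide, 0.623 to 1.86. Scd2, its neighbour on chromosome 19, had 1009.5, 1123.7, 1140.7, 797.3 and 841.5 CPM in E-cad-KO, against 1233.3, 1111.2, 1054.9 and 566.9 CPM in WT, with the same 3 libraries low. The ratio of Scd1 to Scd2 ran from 0.596 to 0.921 in E-cad-KO and from 0.558 to 0.840 in WT, a log2 difference of 0.12 (two-sided exact permutation p = 0.500, adjusted over 2 ratios 0.500). How reads that match both of these related genes were treated is not given in the sources used here.

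Elovl6, which lengthens palmitate, stood at 199.2, 183.2, 181.1, 175.1 and 183.7 CPM in E-cad-KO and at 209.8, 222.8, 192.7 and 164.9 CPM in WT (fold 0.934, interval 0.822 to 1.06). Elovl1, an elongase of saturated chains, stood at 80.5, 94.7, 88.8, 80.5 and 67.2 CPM in E-cad-KO and at 97.2, 87.1, 87.0 and 81.9 CPM in WT (fold 0.933, interval 0.807 to 1.08). Elovl5, an elongase of polyunsaturated chains, stood at 95.1, 106.4, 104.2, 93.7 and 72.3 CPM in E-cad-KO and at 109.6, 94.1, 105.6 and 91.2 CPM in WT (fold 0.942, interval 0.798 to 1.11). The groups overlapped for all 3, though 3 of the 5 E-cad-KO libraries lay below the lowest WT library for Elovl1.

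Fads1 and Fads2 encode the desaturases that make polyunsaturated fatty acids from dietary precursors. Fads1 stood at 87.6, 80.9, 88.6, 69.5 and 58.6 CPM in E-cad-KO and at 104.5, 86.6, 95.2 and 45.9 CPM in WT (fold 0.928, interval 0.654 to 1.32). Fads2 averaged 62.4 ± 9.02 CPM in the E-cad-KO libraries (SD, n = 5) and 61.7 ± 14.0 CPM in the WT libraries (SD, n = 4). In both, WT 4 held less than every other library.

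The genes varied between libraries more than between the groups, and in a shared order. Among the WT libraries, WT 1 was highest and WT 4 lowest for 20 of the 22 sterol genes and for 7 of the 11 fatty acid genes. Of all genes tested, 18.4% had that order. All 6 mevalonate genes and all 11 squalene-to-cholesterol genes had it, and the exceptions in the sterol branch were Srebf1 and Insig1, each highest in WT 3. Over all 9 libraries WT 1 was highest for 15 sterol genes and WT 4 lowest for 17. The median coefficient of variation of the sterol genes was 10.8% among E-cad-KO libraries and 20.6% among WT libraries, against 11.4% and 13.4% for all genes tested in the same groups. The E-cad-KO values lay wholly inside the WT range for 12 of 22 sterol genes and 4 of 11 fatty acid genes, against 20.9% of all genes tested. Cyp51 shows the pattern, with 147.0 to 171.9 CPM in E-cad-KO and 120.4 to 190.0 CPM in WT. Idi1 likewise ran from 232.6 to 297.7 CPM in E-cad-KO and from 203.3 to 377.5 CPM in WT, and Fdft1 from 107.2 to 138.4 CPM in E-cad-KO and from 88.8 to 174.3 CPM in WT. Insig1, which does not have it, ran from 77.3 to 95.4 CPM in E-cad-KO and from 79.8 to 93.5 CPM in WT. These orders were noticed after the values were seen and carry no test.

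**Figure D3:**
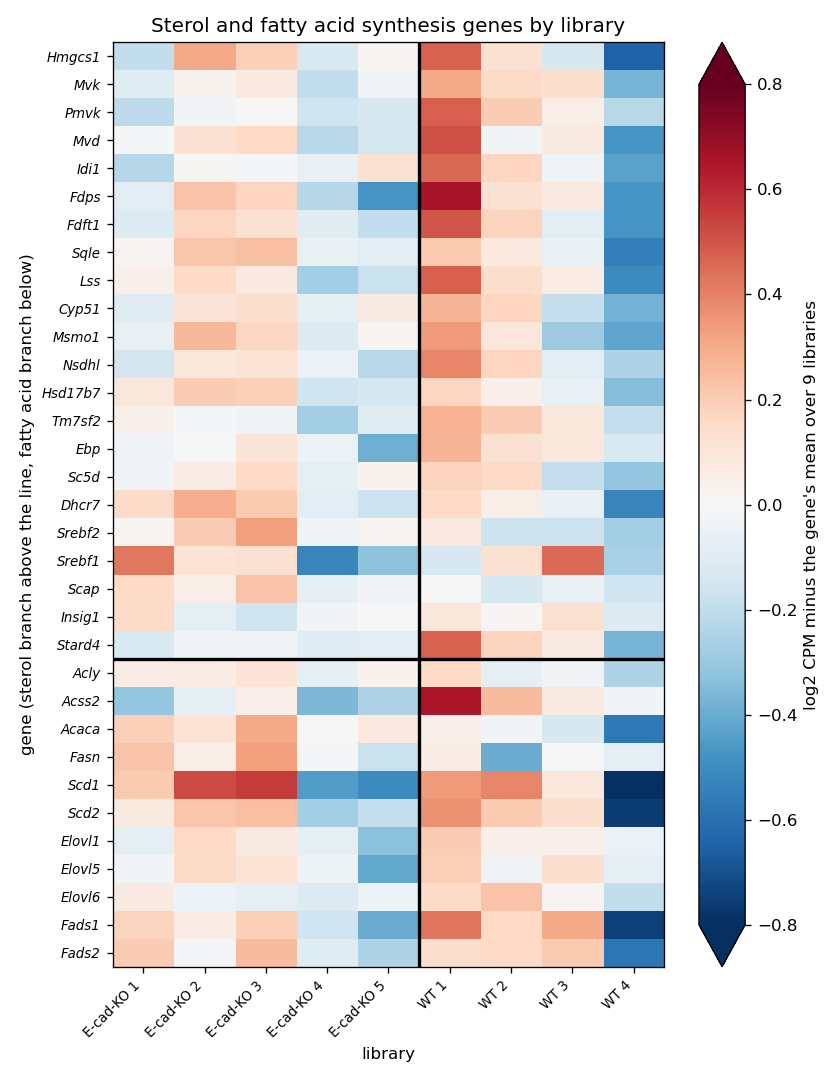
Log2 CPM of each gene in each library after subtracting the gene's mean over the 9 libraries, E-cad-KO libraries left of WT. The WT 1 column is mostly red and the WT 4 column mostly blue in both branches, and for most sterol genes the E-cad-KO libraries lie between them, mostly with E-cad-KO 2 and 3 above E-cad-KO 4 and 5.

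The same libraries differed in cell type markers. The 6 myoepithelial markers, a sum made up mostly of the basal keratins Krt14 and Krt5, came to 3744.8, 6437.4, 7786.2, 3765.8 and 3448.3 CPM in E-cad-KO and to 11459.7, 7973.7, 5319.4 and 2360.3 CPM in WT. That sum was highest in WT 1 and lowest in WT 4, and E-cad-KO 2 and 3 exceeded the other E-cad-KO libraries, as for the sterol sums. The contractile members of the list did not follow it. Acta2, smooth muscle actin, had 112.0, 74.2, 74.5, 68.4 and 48.8 CPM in E-cad-KO and 35.0, 70.7, 132.9 and 144.0 CPM in WT, and Myh11 and Cnn1 were likewise lowest in WT 1 and highest in WT 4. The 8 fibroblast markers ran the other way in WT, with 134.7 to 227.1 CPM in E-cad-KO and 66.3 to 362.9 CPM in WT, the lowest being WT 1 and the highest WT 4. The 11 macrophage markers summed to 346.6 to 405.9 CPM in E-cad-KO and 377.1 to 525.7 CPM in WT, but most of that sum was Cd14, which was lowest of all in WT 4 (166.6 CPM). Lyz2, the lysozyme gene of macrophages, had 42.2, 16.3, 24.1, 89.1 and 122.0 CPM in E-cad-KO and 10.8, 32.1, 76.3 and 307.5 CPM in WT. It was highest in WT 4, E-cad-KO 5 and E-cad-KO 4, as were Adgre1, Mrc1, C1qa and C1qb, and these are libraries low in Scd1 and Scd2. Aif1, also on the macrophage list, did not follow, being highest in WT 2 (1.78 CPM) and lowest in E-cad-KO 5 (0.948 CPM). The 6 endothelial markers summed to 3.60 to 6.46 CPM in E-cad-KO and 5.20 to 11.5 CPM in WT. All 5 that passed the filter had negative log2 fold changes (median -0.94), and 0 were called by edgeR. An unadjusted edgeR p under 0.05 was reached by 2 (40.0%), against 16.7% of all genes tested. Apart from Pecam1, each of these markers had at most 1.51 CPM in any library. The luminal sum, like the myoepithelial one, was lowest in WT 4 (3421.1 CPM). E-cad-KO 2 and 3 exceeded the other E-cad-KO libraries in the luminal sum too, but its highest WT library was WT 2 (4709.8 CPM).

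Fat cells were looked for because they make much lipid. The 10 adipocyte markers summed to 2.62 to 8.61 CPM in E-cad-KO and to 3.75 to 45.4 CPM in WT, the highest again WT 4, where Fabp4 gave 38.3 CPM of it, Plin4 3.03 CPM and Car3 1.59 CPM. Adipoq, the defining fat cell hormone, reached at most 0.0311 CPM in E-cad-KO and 0.986 CPM in WT. That highest value was in WT 4, as were those of Plin1 (0.968 CPM) and Cidec (0.420 CPM). Cidec, Cfd, Lep, Retn and Adrb3 averaged under 0.1 CPM over the 9 libraries. What part the marker differences have in the spread of the synthesis genes was not tested.

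**Figure D4:**
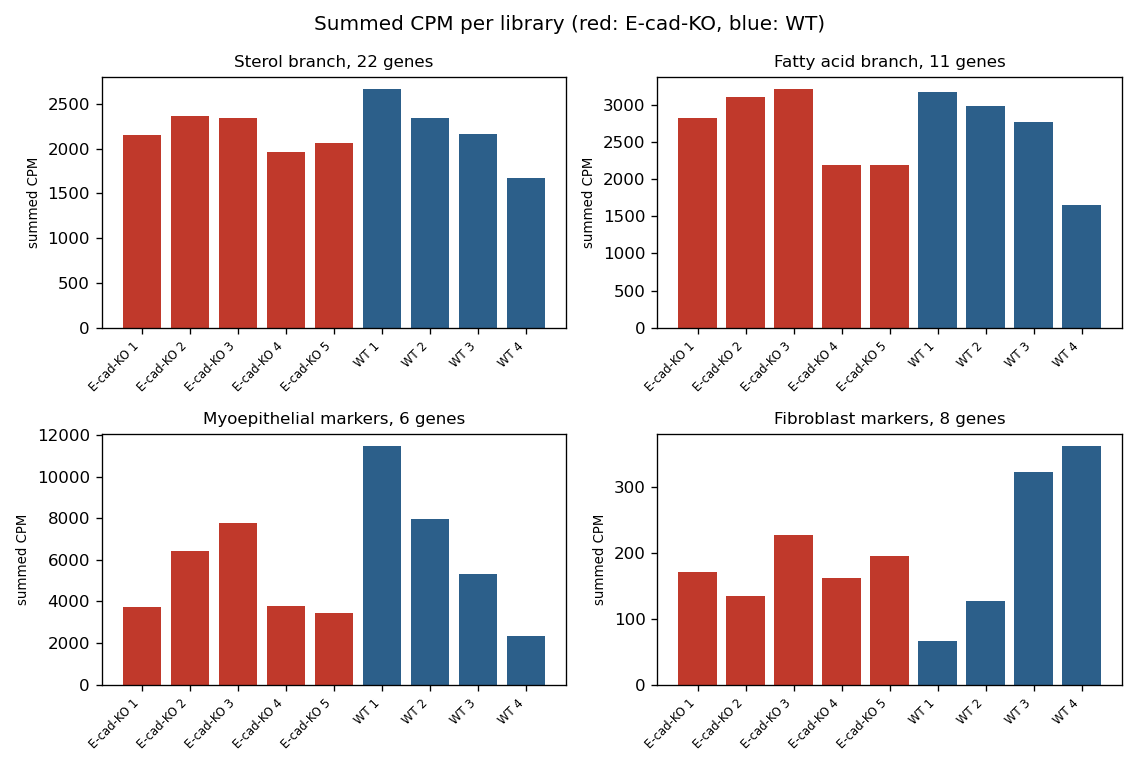
Summed CPM per library of the sterol branch, the fatty acid branch, the myoepithelial markers and the fibroblast markers, E-cad-KO (red) left of WT (blue), each on its own axis from 0. WT 1 is highest and WT 4 lowest in the sterol panel and in the myoepithelial sum, which is mostly Krt14 and Krt5 and hides the opposite order of Acta2, while the fibroblast panel has the opposite WT extremes.

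Genes next to the pathway were read from the same test. Of 9 other cholesterol and isoprenoid genes, 0 were called, 7 were positive and the median log2 fold change was 0.11. Ggps1, which makes geranylgeranyl diphosphate, stood at 0.17 (edgeR adjusted p = 0.373) and Por, the electron donor of microsomal P450 enzymes, at 0.19 (edgeR adjusted p = 0.382). Of 14 sterol uptake, export and storage genes, 13 passed the filter, 0 were called and the median was 0.07. The lysosomal lipase gene Lipa stood at -0.42 (edgeR adjusted p = 0.343) and the sterol exporter gene Abcg1 at 0.31 (edgeR adjusted p = 0.564). Of 7 other genes of SREBP processing, 0 were called by edgeR, 4 were positive and the median was 0.02.

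Of 24 other fatty acid synthesis genes, 22 passed the filter and 0 were called by edgeR, with a median log2 fold change of -0.05. An unadjusted p under 0.05 was reached by 5 of 22 (22.7%), against 16.7% of all genes tested, and groups without overlap by 3, where 8.11% of all genes tested had them. Acsl5, which activates fatty acids as acyl-CoA, came closest. It stood at 176.2, 173.7, 182.3, 168.0 and 169.0 CPM in E-cad-KO, against 153.8, 157.3, 146.0 and 143.6 CPM in WT, without overlap (log2 fold change 0.21, SE 0.05, edgeR adjusted p = 0.0655). Idh1, a source of cytosolic NADPH, also did not overlap, with 169.0 to 201.5 CPM in E-cad-KO and 208.9 to 262.8 CPM in WT (log2 fold change -0.29, edgeR adjusted p = 0.0919). Mid1ip1, an activator of acetyl-CoA carboxylase, had 25.8 to 29.1 CPM in E-cad-KO and 18.7 to 24.7 CPM in WT (log2 fold change 0.28, edgeR adjusted p = 0.148).

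Of 10 triglyceride and lipid droplet genes, 0 were called by edgeR and 3 (30.0%) had an unadjusted p under 0.05, against 16.7% of all genes tested, with a median log2 fold change of -0.06. They were Dgat2, which completes triglycerides, at -0.67 (edgeR adjusted p = 0.156), Xdh, a coat protein of milk fat droplets, at -0.27 (edgeR adjusted p = 0.226) and Pnpla2, the lipase that starts triglyceride breakdown, at 0.21 (edgeR adjusted p = 0.277). Dgat2 was scarce, at 1.60 to 3.19 CPM in E-cad-KO and 3.45 to 5.27 CPM in WT.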

How the data were processed

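Whole frozen gels gave the RNA for 9 samples, sequenced from stranded TruSeq mRNA libraries, per the labels' protocols. The values are the authors' raw counts per gene as deposited, not normalised. The submitters' processing notes list Bowtie2, TopHat2, HTSeq and GRCm38, while versions, annotation release and strand setting were not given in the sources. Symbols matched 51633 of 51912 genes, and genes without a symbol held at most 0.053% of a library.

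Differences were tested in R 4.3.3 with edgeR 4.0.16 (quasi-likelihood, robust, TMM factors), with group alone in the model, over the 17289 genes that passed filterByExpr. P-values are two-sided and adjusted by Benjamini-Hochberg over all of them. The SE comes from the log2 fold change and its F statistic. CPM uses TMM-scaled libraries. Before that scaling, 1 CPM was 44.9 counts in the smallest library, so for the 33 genes counting error was small beside the spread between libraries. Under 1 CPM, as for Adipoq and other scarce markers, values rest on few counts. Libraries of a group differed by a chi-square per degree of freedom of at least 13.7, so none was counted as a duplicate. The closest were E-cad-KO 2 and 3 (13.7) and E-cad-KO 4 and 5 (16.2), while the other E-cad-KO pairs had 24.9 to 68.6. Whether libraries of a pair share an origin is not given in the sources. Alternatives were other size factors and filters, DESeq2 1.42.0, limma-voom (limma 3.58.1), non-robust dispersions, a replicate block and libraries left out. The routines were tested on simulated counts. Gene positions, transcript lengths and exon overlaps came from GENCODE M21.

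The genes, lists, alternatives and the doubt about WT 1 and WT 4 were chosen with earlier results of these data known. Values in every library are given for the 8 genes of smallest p in each branch, and from other lists up to 3 genes of smallest p are named, except where a gene is not reported here. Srebf1, Scd1 and Scd2 were given in full after their values were seen. Exons of 10 of the 33 genes overlap a gene on the other strand and those of 4 (Fdps, Tm7sf2, Scd2 and Srebf1) a gene on the same strand.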

Additional observations from a re-analysis of the deposited data

Results flagged for a closer look

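A library stood apart from the others of its group, by the size of its gap relative to the group's range, in 4 of 84 groups of values examined; chance gives about 1 in 20. In E-cad-KO 2, Cdh1 was at 118.3 CPM, against at most 87.3 CPM in the other E-cad-KO libraries. In WT 4, Fads2 was at 40.8 CPM, against at least 66.8 CPM in the other WT libraries. The adipocyte markers summed to 45.4 CPM in WT 4, against at most 10.7 CPM in the other WT libraries. The macrophage markers summed to 346.6 CPM in E-cad-KO 2, against at least 391.0 CPM in the other E-cad-KO libraries. Of that sum 320.2 CPM was Cd14 alone, and other macrophage genes such as Adgre1 (0.169 CPM, against 0.158 CPM in E-cad-KO 3) did not set E-cad-KO 2 apart.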

How the results depend on the processing

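By edgeR 244 genes were called in all, against 1206 by DESeq2, 511 by limma-voom, 79 without WT 1 and WT 4, and 0 with the replicate block (2418 at an unadjusted p under 0.05). Leaving out 1 library gave 9 to 334 genes: 29, 54, 28, 26 and 47 without E-cad-KO 1 to 5, and 122, 105, 9 and 334 without WT 1 to 4. Of the 33 synthesis genes, DESeq2 called 1, the fatty acid gene Acss2, and the other alternatives 0. At an unadjusted p under 0.05 there were 9 of them without WT 4 (27.3%, against 18.5% of all genes), 6 with the block (18.2% against 14.0%), and 1 without E-cad-KO 3 (3.03% against 13.8%) or without WT 3 (3.03% against 14.0%). Same-numbered libraries did not steadily deviate together (correlations -0.32, 0.23, -0.03 and 0.28), and the samples were treated as unpaired. So few correlations cannot decide whether the numbers mark paired samples. Among E-cad-KO 1 to 4, only E-cad-KO 4 correlated best with its own number, and among the WT libraries only WT 2 did. The highest correlations were between E-cad-KO 2 and WT 1 (0.53) and between E-cad-KO 5 and WT 4 (0.49).

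The log2 fold changes of 18 genes changed sign under some alternative, and those of 15 did not. Outside the single omissions, Scd1 turned to -0.02 by limma-voom and to -0.11 without WT 1 and WT 4, Scd2 to 0.08 and Fads1 to 0.03 with the block, and Fads2 to -0.01 with upper-quartile factors, -0.07 by limma-voom and -0.15 without WT 1 and WT 4. With single libraries left out, Hmgcs1 ran from -0.13 to 0.24, Mvd from -0.21 to 0.12, Idi1 from -0.24 to 0.05, Fdps from -0.37 to 0.01, Fdft1 from -0.24 to 0.09, Sqle from -0.01 to 0.23, Lss from -0.26 to 0.05, Cyp51 from -0.07 to 0.15 and Msmo1 from -0.01 to 0.26. In the same way Nsdhl ran from -0.21 to 0.01, Hsd17b7 from -0.01 to 0.16, Sc5d from -0.03 to 0.14, Srebf1 from -0.19 to 0.08, Scd1 from -0.14 to 0.25, Scd2 from -0.21 to 0.11, Elovl5 from -0.13 to 0.01, Fads1 from -0.31 to 0.03 and Fads2 from -0.14 to 0.09. Acss2 (-0.53 to -0.28), Acaca (0.18 to 0.37), Srebf2 (0.18 to 0.32) and Scap (0.12 to 0.20) kept their signs under all alternatives. The sterol median ran from -0.19 without WT 4 to 0.07 without WT 1. The causes were not tested.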
